A study of Mus musculus with 12 samples.

Results

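The integrin subunits Itgal, Itgb2, Itga4, Itgb1 and Itgb7 and the adhesion ligand Icam2 were followed in RNA sequencing of mouse splenic B cells. They are 6 of the 37991 genes counted, taken by gene symbol and chosen with earlier results of these data known. All 6 passed the filter on low counts that left 13538 genes for testing. In the mm9 build they lie at chr7:134439774-134478651 (Itgal, ENSMUSG00000030830, plus strand), chr10:76992997-77028453 (Itgb2, ENSMUSG00000000290, plus strand), chr2:79095583-79173280 (Itga4, ENSMUSG00000027009, plus strand), chr8:131209554-131257100 (Itgb1, ENSMUSG00000025809, plus strand), chr15:102046426-102062366 (Itgb7, ENSMUSG00000001281, minus strand) and chr11:106238970-106249389 (Icam2, ENSMUSG00000001029, minus strand), and counts cover the exons of each. There were 4 groups of 3 samples, from 8-week-old mice that all carried the CD23-iCre transgene. Cre-only cells (genotype CD23-iCre) and Runx1 c-k/o cells (genotype CD23iCre/Runx1 ck/o, with exon 4 of both Runx1 alleles flanked by LoxP sites) were compared at rest (0 h) and 3 h after activation with anti-IgM and IL-4, so the groups were Cre-only at rest, Cre-only at 3 h, Runx1 c-k/o at rest and Runx1 c-k/o at 3 h. The transgene is first active at the transitional B cell stage, so RUNX1 was present earlier in development. Resting cells had been enriched by depletion of non-B cells and of activated CD43+ B cells. The study describes the samples of a group as biological replicates; which samples share mice, and how many mice gave each, was not given in the sources used here. The comparisons asked what activation does to each gene in either genotype, how the genotypes differ at rest and at 3 h, and whether the genotype difference changes between the 2 times.

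Integrins are receptors made of an α and a β chain that hold lymphocytes to other cells and to matrix. Itgal and Itgb2 encode the chains of LFA-1, which binds the ICAM family, and Icam2 encodes ICAM-2, a short member of that family that is present on resting lymphocytes and endothelium. Itga4 encodes the α4 chain, which pairs with the product of Itgb1 in VLA-4, a receptor for VCAM-1 and fibronectin, or with that of Itgb7 in the receptor for MAdCAM-1 of gut vessels. Itgb1 also pairs with many other α chains. LFA-1 and α4β1 are known for keeping marginal zone B cells in place in the spleen and for the contact of B cells with follicular dendritic cells.

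RefSeq promoter sequences of GRCm38.p6 were found for 3 of the 6 genes, Itga4, Itgb1 and Itgb7. These encode the α4 chain and its alternative partners, and they moved in different directions on activation. They are printed from 250 bases before the transcription start up to the base before it, on the strand of the gene, with each match to the RUNX core motif in capitals. The Itga4 stretch is chr2:79255176-79255425 on the plus strand, the Itgb1 stretch is chr8:128685404-128685653 on the plus strand, and the Itgb7 stretch is chr15:102231936-102232185 on the minus strand.
Itga4: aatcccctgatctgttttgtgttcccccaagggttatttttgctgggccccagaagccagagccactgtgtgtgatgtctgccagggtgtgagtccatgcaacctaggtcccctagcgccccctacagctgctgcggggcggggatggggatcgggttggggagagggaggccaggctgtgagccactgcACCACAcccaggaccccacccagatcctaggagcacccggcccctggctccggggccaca
Itgb1: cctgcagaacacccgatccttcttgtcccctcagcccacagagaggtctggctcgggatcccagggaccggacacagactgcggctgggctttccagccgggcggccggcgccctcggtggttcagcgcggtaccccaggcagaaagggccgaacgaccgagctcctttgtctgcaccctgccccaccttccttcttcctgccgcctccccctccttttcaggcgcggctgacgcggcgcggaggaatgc
Itgb7: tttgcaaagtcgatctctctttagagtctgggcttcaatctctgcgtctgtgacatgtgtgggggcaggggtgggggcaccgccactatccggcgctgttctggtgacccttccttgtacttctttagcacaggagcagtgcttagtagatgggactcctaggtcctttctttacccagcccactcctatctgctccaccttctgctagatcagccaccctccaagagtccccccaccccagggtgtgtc
Both strands were searched for TGTGGT and for TGCGGT. Itga4 held 1 match, to TGTGGT read on the opposite strand as ACCACA, from 60 to 55 bases before the start. Itgb1 and Itgb7 held no match in this window. Of 27025 promoters of the same length, 14.2% held TGTGGT, 5.06% held TGCGGT and 18.7% held either, so a match is frequent and describes letters only.

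Total counts ran from 14442251 to 23641552 per library, so 3 counts, the smallest number taken as above zero, corresponded to 0.127 to 0.208 CPM, counts scaled to a common library total. Runx1 counts cover the whole gene and not the deleted exon alone, so they check no label. Runx1 was at 81.8 to 86.7 normalized CPM in Cre-only cells, against 95.7 to 103 in Runx1 c-k/o cells at rest, and at 34.9 to 38.5 and 47.3 to 74.5 at 3 h. Among 2429 genes outside the adhesion lists that changed at least 4-fold on activation in Cre-only cells, the median position of a library on the way from rest (0%) to 3 h (100%) was within 1.89% of its own time in 9 of the 12 libraries. The Cre-only group means set 0% and 100%, so the Cre-only libraries lie near these ends by construction. Resting Runx1 c-k/o library 2 stood at 11.98%, and 3-h Runx1 c-k/o libraries 1 and 2 stood at 105% and 90.1%. These 3 libraries stand apart from their groups, and results that rest on them are given with and without them, a choice made after seeing the data. The B cell markers Ms4a1, Cd79a, Cd79b, Pax5, Cd22 and Cd74 were all abundant, and the summed level of 9 T cell markers was 9.54 normalized CPM or less in every library. Myeloid and erythroid markers reached higher sums. At rest the myeloid sum was 272 to 341 normalized CPM for Cre-only samples, against 237 to 479 for Runx1 c-k/o samples. The sum of 4 erythroid markers was 36.1 to 253 against 246 to 410 at rest, and 12.3 to 136 against 115 to 203 at 3 h. Both erythroid comparisons overlapped.

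Activation for 3 h changed the 6 genes very unequally. In Cre-only cells Itgb7 fell 29.2-fold, Itga4 12.5-fold and Itgal 3.45-fold. Itgb1 rose 2.34-fold and Itgb2 fell 1.20-fold. Icam2 was at 84.2% of its resting mean and did not pass the test. By the quasi-likelihood test of edgeR, with p-values adjusted over all genes tested, 5 of the 6 genes were called at an adjusted p under 0.05, 1 higher and 4 lower. This was against 75.0% of all genes called, 38.6% higher and 36.4% lower, so being called was no mark of these genes. Their median log2 fold change was -1.02, beside 0.03 over all genes tested. The sizes of the decreases were less common, since 1.19% of genes had a lower log2 fold change than Itgb7 and 3.58% a lower one than Itga4.

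**Figure D1:**
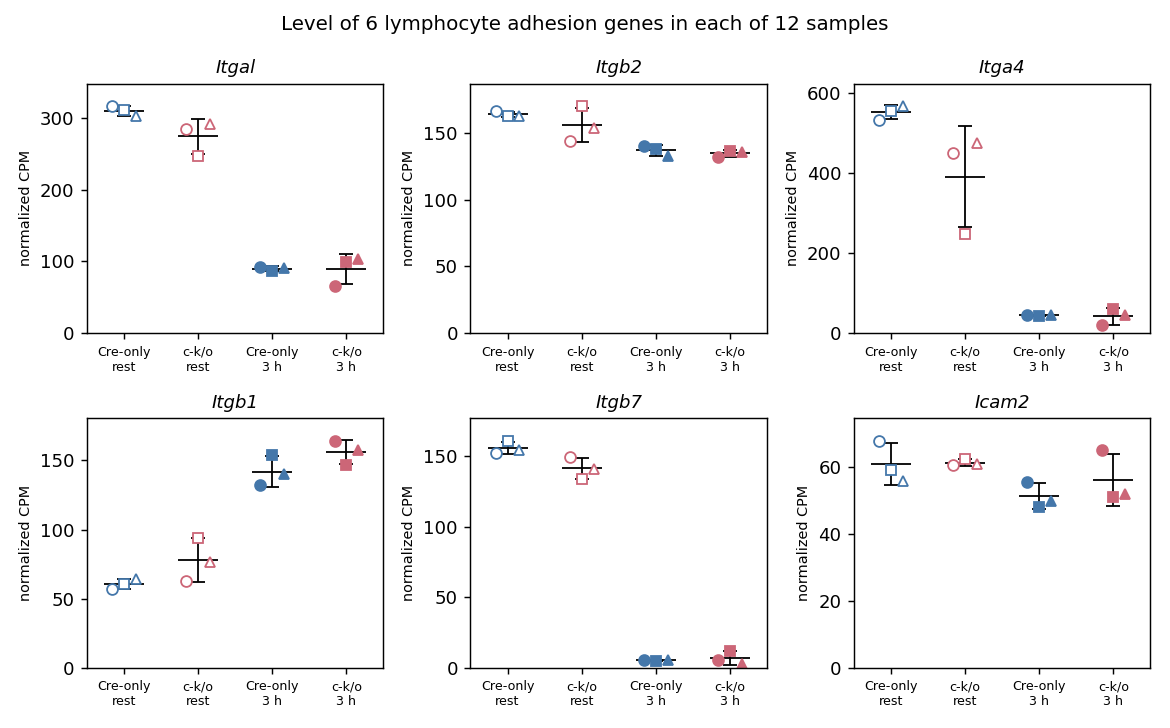
Normalized CPM (linear axis from 0) of each gene in each of the 12 samples. Circles, squares and triangles are replicates 1, 2 and 3, open symbols are resting and filled symbols 3-h samples, blue is Cre-only and red Runx1 c-k/o, and bars give the mean ± SD of 3 samples. Itgb7 and Itga4 drop towards 0 at 3 h in both genotypes, Itgb1 rises, and Icam2 and Itgb2 move little; the open red square of Itga4, at 247, is far below the other resting samples.

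Itgb7, the β chain of the gut-homing integrin, lay at 152, 161 and 154 normalized CPM in the resting Cre-only samples. After 3 h it was at 5.74, 4.70 and 5.48. The groups did not overlap, and the log2 fold change was -4.87 ± 0.35 (SE, n = 3 per group; edgeR adjusted p = 1.22e-07). Runx1 c-k/o samples lay at 149, 134 and 141 at rest and at 5.73, 12.1 and 2.89 at 3 h, a log2 fold change of -4.37 ± 0.34 (edgeR adjusted p = 2.77e-07). The 3-h values of Runx1 c-k/o cells spread over a wider range than those of Cre-only cells and rested on 49 to 184 counts. The mean that remained at 3 h was 3.41% of the resting mean in Cre-only cells, against 4.87% in Runx1 c-k/o cells.

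Itga4, the α chain shared by both α4 integrins, was at 533, 556 and 567 normalized CPM in Cre-only cells at rest and at 45.2, 42.7 and 44.9 after 3 h, with no overlap. Its log2 fold change was -3.64 ± 0.35 (SE; edgeR adjusted p = 1.39e-06). Runx1 c-k/o cells had 451, 247 and 475 at rest and 19.1, 59.2 and 45.9 at 3 h, a log2 fold change of -3.24 ± 0.35 (edgeR adjusted p = 3.60e-06). The lowest resting value and the lowest and highest 3-h values came from the 3 libraries that stand apart. In the mm9 annotation Itga4 shares 1124 bases of exon with the antisense gene Cerkl. The strand setting of the counting was not given in the sources used here, so reads of the pair may not be separable, and Cerkl itself held 52 counts or fewer in every library.

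Itgal, the α chain of LFA-1, fell from 316, 311 and 303 to 92.7, 86.8 and 90.2 normalized CPM in Cre-only cells. The log2 fold change here was -1.78 ± 0.15 (edgeR adjusted p = 3.39e-07). In the other genotype it fell from 285, 246 and 292 to 65.3, 98.5 and 103, a log2 fold change of -1.62 ± 0.15 (edgeR adjusted p = 8.29e-07). The times did not overlap in either genotype, and the mean that remained was 29.0% of the resting mean in Cre-only cells, against 32.4% in Runx1 c-k/o cells.

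Itgb2, the β chain that LFA-1 shares with the other leukocyte integrins, changed far less than its partner. It was at 166, 163 and 163 normalized CPM at rest and 140, 138 and 133 at 3 h in Cre-only cells, a log2 fold change of -0.26 ± 0.08 (edgeR adjusted p = 0.00843). Runx1 c-k/o samples were at 144, 170 and 154 at rest and at 132, 137 and 136 at 3 h, a log2 fold change of -0.21 ± 0.08 (edgeR adjusted p = 0.0253). The times did not overlap in either genotype. The call in Runx1 c-k/o cells was lost without resting library 2 (-0.14, edgeR adjusted p = 0.107), resting library 3 (-0.22, edgeR adjusted p = 0.0502) or 3-h library 2 (-0.21, edgeR adjusted p = 0.0562).

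Itgb1, the β chain of VLA-4 and of the matrix receptors, rose. Its values were 57.3, 60.6 and 64.0 normalized CPM at rest and 132, 154 and 140 at 3 h in Cre-only cells, a log2 fold change of 1.23 ± 0.13 (edgeR adjusted p = 2.94e-06). Runx1 c-k/o cells had 62.5, 94.2 and 76.3 at rest and 164, 147 and 158 at 3 h, a log2 fold change of 1.01 ± 0.13 (edgeR adjusted p = 1.62e-05). Every 3-h value was above every resting value in both genotypes, and 15.7% of all genes had a higher log2 fold change in Cre-only cells.

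Icam2, the ligand, gave 67.9, 59.1 and 55.8 normalized CPM at rest and 55.6, 48.2 and 50.01 at 3 h in Cre-only cells. All 3 resting values were above the 3-h values, the nearest by a narrow margin, and the log2 fold change of -0.25 ± 0.11 missed the threshold (edgeR adjusted p = 0.0566). The sample numbers pair the Cre-only samples of both times (their deviations from the group means correlate). With a replicate block over the 4 groups the value was -0.25 and called (adjusted p = 0.0355), with a replicate block within each genotype it was -0.25 and not called (adjusted p = 0.0707), and the DESeq2 Wald test called it at -0.33 (adjusted p = 0.0133). Runx1 c-k/o cells gave 60.6, 62.5 and 61.1 at rest and 65.1, 51.3 and 52.1 at 3 h, and the times overlapped (log2 fold change -0.13 ± 0.11, edgeR adjusted p = 0.307). Without 3-h Runx1 c-k/o library 1, which gave the 65.1, the change was -0.26 and called (adjusted p = 0.0248).

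The same 5 genes were called on activation in Runx1 c-k/o cells, 1 higher and 4 lower, against 74.3% of all genes, 37.7% higher and 36.6% lower. Their median log2 fold change was -0.92, beside 0.00462 over all genes tested. The times did not overlap for 6 of 6 genes in Cre-only cells and for 5 of 6 in Runx1 c-k/o cells, against 84.4% and 72.8% of all genes. With library size alone as the scaling, the median log2 fold change of all genes on activation moved from 0.00462 to -0.11 in Runx1 c-k/o cells, and the directions of the 6 genes on activation stayed. Without the 3 libraries that stand apart, the log2 fold change in Runx1 c-k/o cells was -5.70 for Itgb7, -3.39 for Itga4, -1.54 for Itgal and 1.13 for Itgb1, and there the 3-h Runx1 c-k/o cells are 1 sample, with 49 counts of Itgb7. With 1 RUVs factor, which takes up part of the difference between times, the edgeR log2 fold changes in Cre-only cells were -1.92 for Itga4, -1.15 for Itgal, -4.39 for Itgb7 and 0.92 for Itgb1, all called.

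**Figure D2:**
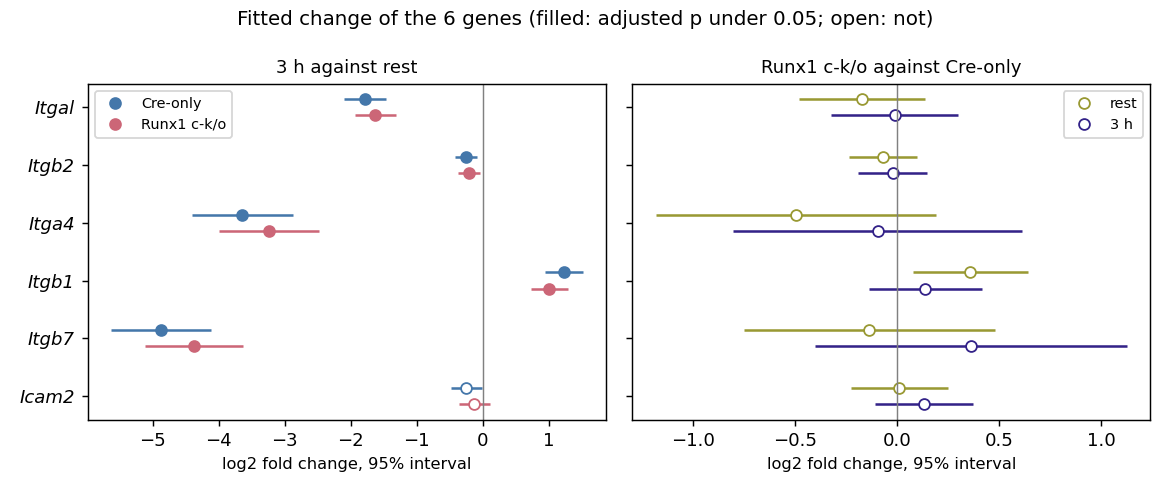
Fitted log2 fold changes of the 6 genes with 95% confidence intervals, on activation (left) and between genotypes (right); the axes have different scales. Filled points passed an adjusted p of 0.05 and open points did not: on activation all but Icam2 are filled, and between genotypes none is.

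None of the 6 genes differed between genotypes past the threshold at rest, where 0 of 6 were called by edgeR and by DESeq2, against 1.49% of all genes (0.731% higher and 0.761% lower), with 1 at an unadjusted p under 0.05. The largest difference in the mean was that of Itga4, at 391 ± 126 (SD, n = 3) normalized CPM in Runx1 c-k/o against 552 ± 17.3 in Cre-only cells. All 3 values were below those of Cre-only cells, but the log2 fold change of -0.50 had a 95% confidence interval from -1.19 to 0.19 (edgeR adjusted p = 0.616). With 1 RUVs factor of unwanted variation it was -0.30 and called (edgeR adjusted p = 0.0123). The study's methods include such factors, with DESeq2, but give neither their number nor the control genes, so its settings may differ. Itgal and Itgb7 also had all 3 values below those of Cre-only cells, with log2 fold changes of -0.17 (interval -0.48 to 0.13) and -0.14 (interval -0.75 to 0.48). That made 3 of 6 genes with no overlap between genotypes, all of them lower in Runx1 c-k/o cells, against 23.7% of all genes. Itgb1 had the reverse order of means, 77.7 ± 15.9 against 60.6 ± 3.36 normalized CPM, with an unadjusted p of 0.0168, an adjusted p of 0.289 and 1 of the 3 Runx1 c-k/o values within the Cre-only range (edgeR). Itgb2 and Icam2 overlapped between genotypes, with log2 fold changes of -0.07 (interval -0.24 to 0.10) and 0.01 (interval -0.23 to 0.25).

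Resting Runx1 c-k/o library 2 was the lowest of its group for Itga4, Itgal and Itgb7 and the highest for Itgb1. These were the directions in which those genes moved on activation. The same library was also the highest of its group for Itgb2 (170 normalized CPM) and Icam2 (62.5), whose means were lower at 3 h. Without it the genotype difference was -0.26 for Itga4 (edgeR adjusted p = 0.999) and 0.19 for Itgb1 (edgeR adjusted p = 0.764). Without all 3 libraries that stand apart, which leaves a lone 3-h Runx1 c-k/o sample that is assumed to vary like the other groups, the difference for Itga4 was -0.24 ± 0.05 and called (edgeR adjusted p = 0.00513). Markers of B cell subsets were set beside these values. The summed level of 6 marginal zone B cell markers, all of which passed the filter on low counts, was 1189 to 1525 normalized CPM in Cre-only cells, against 1675 to 1828 in Runx1 c-k/o cells. Most of this gap was Cr2, at 818 to 1075 against 1225 to 1411; Cd9 was also higher in all 3 Runx1 c-k/o samples, and Cd1d1, Dtx1, Myof and S1pr3 overlapped between genotypes. That of 4 B1 cell markers was 59.3 to 67.0 against 74.4 to 92.6, most of it Bhlhe41, at 40.8 to 50.5 against 57.9 to 58.6. That of 2 of the 3 listed follicular markers was 1366 to 1446 against 1174 to 1377, an overlap. The part of cell makeup in the values of the 6 genes was not tested, and in such bulk samples fewer cells of a type and less RNA per cell cannot be told apart.

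At 3 h 0 of 6 genes were called between genotypes by edgeR and by DESeq2, against 2.77% of all genes (1.47% higher and 1.30% lower), with 0 at an unadjusted p under 0.05. No gene had groups that did not overlap, against 21.8% of all genes. The log2 fold changes were -0.01 for Itgal (95% interval -0.33 to 0.30), -0.02 for Itgb2 (interval -0.19 to 0.14), -0.10 for Itga4 (interval -0.81 to 0.61), 0.14 for Itgb1 (interval -0.14 to 0.41), 0.36 for Itgb7 (interval -0.41 to 1.13) and 0.13 for Icam2 (interval -0.11 to 0.37). The direction for Itgb7 came from 3-h Runx1 c-k/o library 2, the one at 12.1 normalized CPM. Without it the value was -0.32 (edgeR adjusted p = 0.438), and without all 3 libraries that stand apart it was -0.89 and called (edgeR adjusted p = 0.00362), on 1 Runx1 c-k/o sample of 49 counts. Itgal and Itga4 turned to 0.19 and 0.27 without 3-h Runx1 c-k/o library 1 (edgeR adjusted p = 0.445 and 0.774).

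The change of the genotype difference between rest and 3 h was called for 0 of 6 genes by edgeR and by DESeq2, against 0.0813% of all genes (0.0665% higher and 0.0148% lower), with 0 at an unadjusted p under 0.05. The estimates ran from -0.22 for Itgb1 (95% interval -0.61 to 0.17) to 0.50 for Itgb7 (interval -0.48 to 1.48). The intervals were widest for Itga4 and Itgb7, the genes that the libraries standing apart moved most. The interaction was called for Itga4 in DESeq2 with 1 RUVs factor (0.38, adjusted p = 0.0196) and without resting library 2 and 3-h library 1 of the Runx1 c-k/o cells (0.52, edgeR adjusted p = 0.0445), and for Itgb7, in the opposite direction to its estimate, without all 3 libraries that stand apart (-0.80, edgeR adjusted p = 0.0343).

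The balance between partner transcripts was followed as ratios of normalized CPM per kilobase of exon, which allow levels of different genes to be compared. In resting Cre-only cells Itgal and Itgb2 were nearly level, with ratios of 0.909, 0.913 and 0.888. At 3 h these were 0.316, 0.301 and 0.325. With all exons as the length, Itgal was slightly the scarcer transcript at rest and was so by a wider margin at 3 h. The Runx1 c-k/o ratios were 0.946, 0.693 and 0.909 at rest and 0.236, 0.345 and 0.364 at 3 h. Neither genotype had an overlap between the times, and the mean log2 ratios at the 2 times differed 2.88-fold and 2.72-fold.

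**Figure D3:**
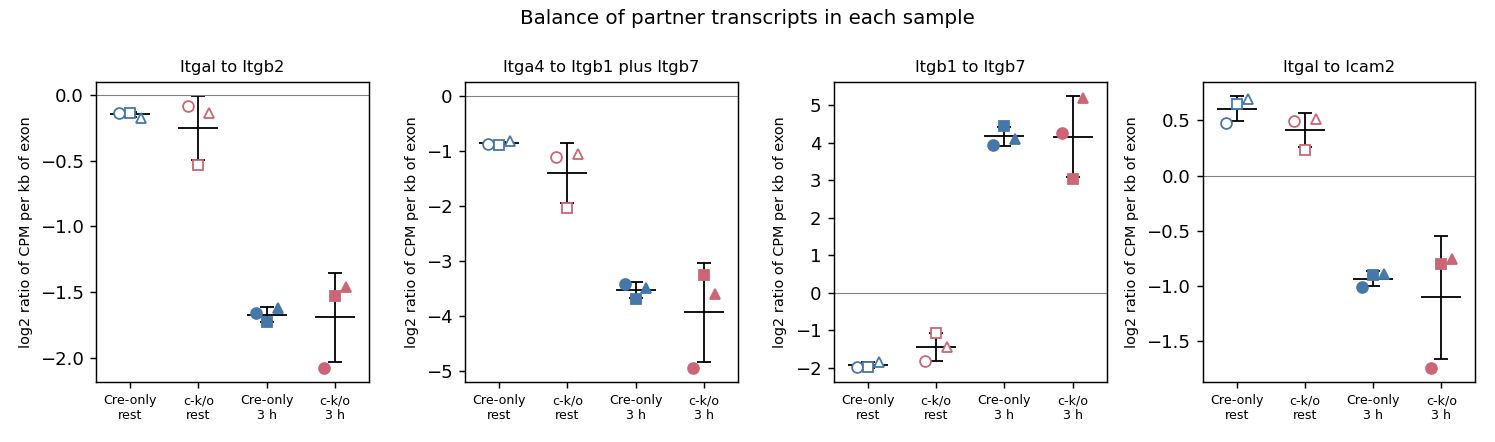
Log2 ratio of normalized CPM per kilobase of exon for 4 pairs of genes in each sample (symbols as in the plot of levels by sample; bars are mean ± SD of 3 samples; the axes have different scales). The times are apart for every pair in both genotypes, and the ratio of Itgb1 to Itgb7 crosses 0 from about -2 to about 4.

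The partners of the α4 chain exchanged places. In resting Cre-only cells Itgb7 made up 79.8%, 79.8% and 78.2% of the sum of Itgb1 and Itgb7 per kilobase, and at 3 h it made up 6.08%, 4.36% and 5.49%. In the Runx1 c-k/o samples the shares were 78.0%, 68.0% and 73.4% at rest and 4.94%, 10.9% and 2.65% at 3 h. The log2 ratio of Itgb1 to Itgb7 moved from -1.94 ± 0.08 (SD, n = 3) to 4.17 ± 0.26 in Cre-only cells, a 68.9-fold shift, and from -1.46 ± 0.37 to 4.16 ± 1.09 in Runx1 c-k/o cells. The ratio of Itga4 to the sum of both partners went from 0.548, 0.541 and 0.563 to 0.0940, 0.0775 and 0.0883 in Cre-only cells. In the other genotype it went from 0.463, 0.245 and 0.483 to 0.0324, 0.105 and 0.0828. Itgal was above Icam2 per kilobase in all 6 resting samples, with ratios from 1.18 to 1.62, and below it in all 6 activated samples, with ratios from 0.299 to 0.591. The level of a ratio depends on the lengths used: with the longest transcript, Itgal was at 47.2 and Icam2 at 48.8 normalized CPM per kilobase in resting Runx1 c-k/o library 2, and Itgal was above Itgb2 in all 3 resting Cre-only samples. A change of length moves the log2 ratio of 2 genes by the same amount in every sample.

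With 3 against 3 samples the two-sided exact permutation test cannot give a p below 0.1, so no ratio could pass the threshold, and after adjustment over the 16 tests the smallest value was 0.16. All 4 ratios reached that smallest value between times in both genotypes. Between genotypes at rest the ratio of Itgb1 to Itgb7 was higher and that of Itga4 to its partners lower in all 3 Runx1 c-k/o samples (exact permutation p = 0.1 for each). Resting Runx1 c-k/o library 2 lay furthest from the Cre-only samples in both. The differences of 0.48 and -0.54 on the log2 scale ran from 0.29 to 0.66 and from -0.71 to -0.22 leaving out 1 library. The other genotype comparisons of ratios overlapped.

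The order of the 6 genes by level per kilobase changed on activation. In resting Cre-only cells it was Itgb7 at 56.8 ± 1.62 (SD, n = 3), Itgb2 at 53.8 ± 0.663, Itgal at 48.6 ± 1.06, Itga4 at 39.5 ± 1.24, Icam2 at 32.0 ± 3.26 and Itgb1 at 14.9 ± 0.823 normalized CPM per kilobase. No neighbours in that order overlapped in their ranges. At 3 h it was Itgb2 at 44.9 ± 1.30, Itgb1 at 34.8 ± 2.69, Icam2 at 26.9 ± 2.03, Itgal at 14.1 ± 0.460, Itga4 at 3.17 and Itgb7 at 1.94 ± 0.197, again with no overlap between neighbours. Itgb7 thus went from the highest to the lowest level and Itgb1 from the lowest to the second.

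Runx1 c-k/o cells had the same order at 3 h, with the ranges of Itga4 and Itgb7 overlapping. At rest Itgb7 (51.6 ± 2.74 normalized CPM per kilobase) and Itgb2 (51.1 ± 4.28) overlapped, and Icam2, Itga4 and Itgb1 followed Itgal with overlaps between each and the next. The order among the upper ranks depends on the length used. With the longest annotated transcript in place of all exons, 4 of the 6 ranks moved in resting Cre-only cells, where Itgal came first at 59.3, and 2 moved in each of the other groups. Itgb1 stayed lowest at rest and Itgb7 lowest at 3 h.

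The genes most like each member were sought over the 12 samples by the root mean square difference of log2 (normalized CPM + 1) values centred on each gene's mean. For Itgb7 they were Siglecg, an inhibitory lectin of B cells (0.13), Pld4, a nuclease of endolysosomes (0.19), and Rgs14, a regulator of G protein signalling (0.20). Siglecg fell from 584 to 23.9 normalized CPM in the means of Cre-only cells and from 534 to 28.8 in Runx1 c-k/o cells. For Itga4 they were A430078G23Rik (0.14), Ssh2, a phosphatase of the actin regulator cofilin (0.16), and Gm16724 (0.20). Ssh2 was at 282, 26.1, 177 and 20.3 normalized CPM in Cre-only rest, Cre-only 3 h, Runx1 c-k/o rest and Runx1 c-k/o 3 h.

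For Itgal they were Arhgap27 (0.09), Ikzf1, which encodes the transcription factor Ikaros (0.09), and Arsk (0.10). For Itgb1 they were Ifnar2, a chain of the type I interferon receptor (0.08), Zfp94 (0.08) and Mrpl44, of the mitochondrial ribosome (0.09). The genes nearest to Itgb2 were Zc3h14, the sphingolipid synthesis gene Sptlc2 and Pcif1, and those nearest to Icam2 were Bcl7b, Tapbp, which encodes tapasin, and Dnajc7, with differences from 0.06 to 0.07. For Itgb2 and Icam2, which moved little, a small difference is met by many genes. Among the 6 genes themselves, Icam2 was number 418 in likeness to Itgb2, and Itga4 was number 170 in likeness to Itgb7, out of 13538 genes tested.

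Across the whole integrin family, 19 of 26 subunit genes passed the filter on low counts. The 7 that did not, Itga2, Itga7, Itga8, Itga11, Itgb4, Itgb6 and Itgb8, had 14 counts or fewer in every library. On activation in Cre-only cells 5 of 19 rose, 10 fell and 4 were not called, beside 38.6% of all genes higher and 36.4% lower. For Runx1 c-k/o cells the counts were 4, 12 and 3, beside 37.7% of all genes higher and 36.6% lower. The median log2 fold changes were -0.41 and -0.84, beside 0.03 and 0.00462 over all genes tested.

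Itgav, the αv chain that partners Itgb1, Itgb3 and Itgb5, had the highest log2 fold change of the 19 in both genotypes. It was at 53.7 to 57.5 normalized CPM at rest and 414 to 480 at 3 h in Cre-only cells, an 8.13-fold rise (log2 fold change 3.02 ± 0.22, edgeR adjusted p = 1.28e-07), and it rose 7.03-fold in Runx1 c-k/o cells. Itgae, the αE partner of Itgb7, rose 4.55-fold and 6.60-fold, from 0.434 normalized CPM or less at rest to 1.99 or less, so its level stayed low. Itga3 rose 2.45-fold and 2.16-fold and was at 3.20 normalized CPM or less. Itgb3 rose 1.66-fold in Cre-only cells (edgeR adjusted p = 0.00307) and was not called in Runx1 c-k/o cells (log2 fold change -0.11, edgeR adjusted p = 0.614). The difference between genotypes in this response was not called (edgeR adjusted p = 0.594).

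**Figure D4:**
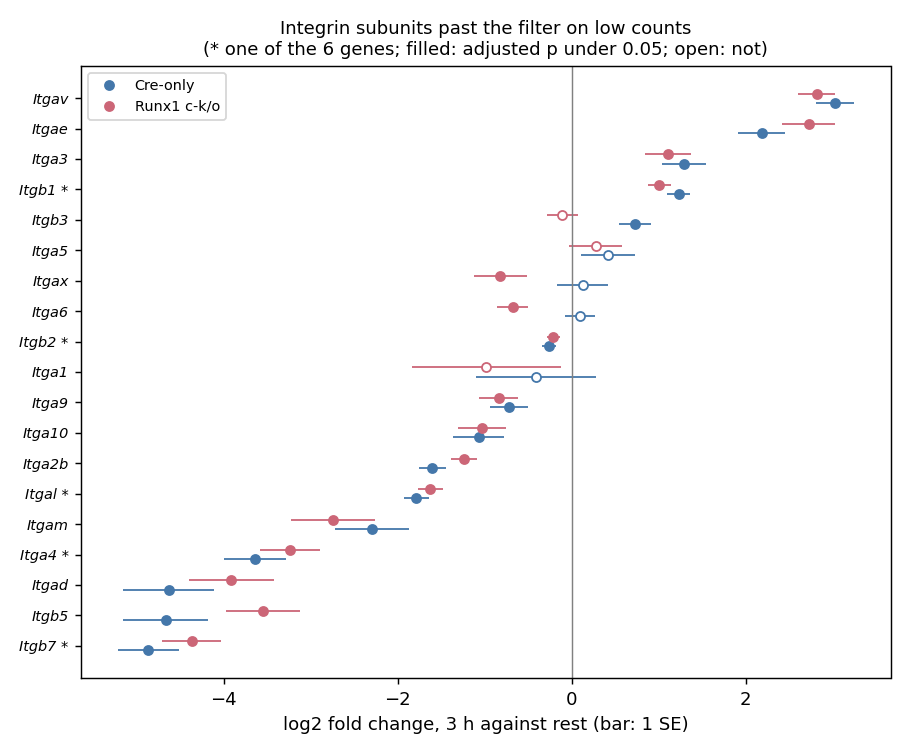
Log2 fold change at 3 h against rest of the 19 integrin subunits that passed the filter on low counts, with bars of 1 SE; blue is Cre-only, red is Runx1 c-k/o, filled points passed an adjusted p of 0.05, and an asterisk marks the subunits among the 6 genes. Itgb7, at -4.87 in Cre-only cells, lies at the lower end and Itgav, at 3.02, at the upper end.

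Among the subunits that fell were Itgad (αD) 24.8-fold and Itgb5 25.4-fold in Cre-only cells and 15.1-fold and 11.7-fold in Runx1 c-k/o cells. Itga2b, the platelet αIIb chain, fell 3.04-fold and 2.36-fold, and Itgam (αM), a myeloid partner of Itgb2, fell 4.90-fold and 6.72-fold. Itga9 fell 1.65-fold and 1.79-fold and Itga10 fell 2.10-fold and 2.04-fold. Itga5 and Itga1 were called in neither genotype. Itgax, the αX partner of Itgb2, and Itga6 fell in Runx1 c-k/o cells (by 0.82 ± 0.31 and 0.68 ± 0.18 on the log2 scale) and were not called in Cre-only cells, at 0.12 and 0.10, and the difference between genotypes was called for neither (edgeR adjusted p = 0.968 and 0.652). Markers of myeloid cells were also lower at 3 h. Of 10 such markers 8 passed the filter on low counts, and their summed level was 272 to 341 normalized CPM at rest and 25.7 to 36.3 at 3 h in Cre-only cells, and 237 to 479 and 31.0 to 63.0 in Runx1 c-k/o cells. Csf1r made up most of it, and the neutrophil marker Ly6g was at 0.0620 normalized CPM or less. Runx1 c-k/o library 2 had the highest sum of its group at each time, and there Itgad reached 97.2 and 10.3 normalized CPM and Itgb5 27.1 and 2.95. The part of other cells in the decrease of these subunits was not tested. The platelet markers, 3 of 5 past the filter, summed to 5.56 to 7.95 normalized CPM over all resting and 0.993 to 1.64 over all 3-h libraries.

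Between genotypes 0 of 19 subunits were called at rest by edgeR and by DESeq2, with 1, Itgb1, at an unadjusted p under 0.05. At 3 h edgeR called 1, Itga6, the laminin-binding α6 chain, against 2.77% of all genes, and DESeq2 called 3. By edgeR 4 had an unadjusted p under 0.05. Itga6 was at 30.2 to 35.1 normalized CPM in Cre-only cells, against 11.3 to 20.2 in Runx1 c-k/o cells, a log2 fold change of -0.95 ± 0.18 (edgeR adjusted p = 0.0145). The call was lost without 3-h Cre-only library 1 (-0.97, edgeR adjusted p = 0.0513) or 2 (-0.88, edgeR adjusted p = 0.0697) and in a fit of those 2 groups alone (-0.93, edgeR adjusted p = 0.123). Itga6 was not called at rest, at 27.3 to 31.4 against 23.6 to 30.3 normalized CPM. Itgb3 was also lower in all 3 Runx1 c-k/o samples at 3 h, at 51.4 to 73.1 against 79.8 to 112 normalized CPM, and missed the threshold (edgeR adjusted p = 0.0734).

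Of the ligands of integrins, 9 of 14 passed the filter. On activation in Cre-only cells 3 rose, 4 fell and 2 were not called, beside 38.6% of all genes higher and 36.4% lower. Vcam1, the ligand of α4β1, fell 48.1-fold in Cre-only cells, where it ranged between 151 and 214 normalized CPM at rest and between 3.25 and 4.44 at 3 h. Its decrease was 22.6-fold in Runx1 c-k/o cells, where it ranged between 133 and 274 and between 2.58 and 21.9, with library 2 the highest at both times. The myeloid marker Csf1r ranged between 164 and 206 normalized CPM at rest and between 5.16 and 8.16 at 3 h in Cre-only cells. Runx1 c-k/o library 2 was the highest of its group for Csf1r too, at 283 and 26.5. The part of other cells in the decrease of Vcam1 was not tested. Thbs1, encoding thrombospondin 1, and F11r, encoding the LFA-1 ligand JAM-A, fell by 3.21 and 2.19 on the log2 scale in Cre-only cells. Icam1, the main inducible ligand of LFA-1, rose 1.54-fold in Cre-only cells, against 1.53-fold in Runx1 c-k/o cells, while Icam2 was called in neither. Icam1 lost its calls with 1 RUVs factor (0.33 and 0.30, edgeR adjusted p = 0.106 and 0.146). Spp1 and Icam5 were called higher in both genotypes, from low levels. Spp1 lost the call in Cre-only cells with 1 RUVs factor (0.41, edgeR adjusted p = 0.289), Thbs1 lost that in Runx1 c-k/o cells (-0.96, edgeR adjusted p = 0.144), and Icam5 in Runx1 c-k/o cells lost it under most alternatives, with values from 0.97 to 2.39. No ligand was called between genotypes at rest or at 3 h by edgeR or by DESeq2, with 1 and 2 at an unadjusted p under 0.05.

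The genes of inside-out activation, by which integrins are switched to high affinity, mostly fell. Of 16 tested, 13 fell, 2 rose and 1 was not called in each genotype, beside 36.4% of all genes lower and 38.6% higher in Cre-only cells (36.6% and 37.7% for the other genotype). They had a median log2 fold change of -1.19 in Cre-only cells, against -1.35 in Runx1 c-k/o cells. Rassf5, encoding the RAP1 effector RAPL, had a log2 fold change of -1.47 ± 0.07, Fermt3, encoding kindlin-3, one of -1.41 ± 0.08 and Apbb1ip, encoding RIAM, one of -1.18 ± 0.07 in Cre-only cells. Rasgrp3 fell by 3.66 on the log2 scale in Runx1 c-k/o cells. Slc3a2, the CD98 heavy chain that associates with β chains, rose by 1.34 ± 0.17 and Rap1a by 0.65 ± 0.11 in Cre-only cells, and Rap1a lost the call with 1 RUVs factor (0.19, edgeR adjusted p = 0.105).

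The genes that restrain integrins fell as well, 8 of 10 in each genotype, with 1 higher and 1 not called, beside 36.4% and 36.6% of all genes lower. Their median log2 fold changes were -2.02 and -1.80, beside 0.03 and 0.00462 over all genes tested. Sipa1, a GTPase-activating protein for RAP1, fell by 2.58 ± 0.12 on the log2 scale in Cre-only cells and Rasa3 by 2.85 ± 0.17, and Cytip, encoding an inhibitor of LFA-1 adhesion, fell by 1.67 ± 0.10 in Runx1 c-k/o cells. Dok1 rose by 0.43 in Cre-only cells, against 0.38 in Runx1 c-k/o cells, with the sign turned when a factor of unwanted variation was added. Among the 20 tested genes of the adhesion complex, 7 rose and 9 fell in Cre-only cells, against 7 and 11 in Runx1 c-k/o cells. Of all genes, 38.6% were higher and 36.4% lower in Cre-only cells, against 37.7% and 36.6% in Runx1 c-k/o cells. Lpxn, encoding leupaxin, rose by 2.97 ± 0.23, Rdx by 0.98 ± 0.08 and Crk by 0.92 ± 0.08, and Evl fell by 3.65 ± 0.23, Zyx by 1.90 ± 0.11 and Ptk2b by 1.42 ± 0.11 in Cre-only cells.

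**Figure D5:**
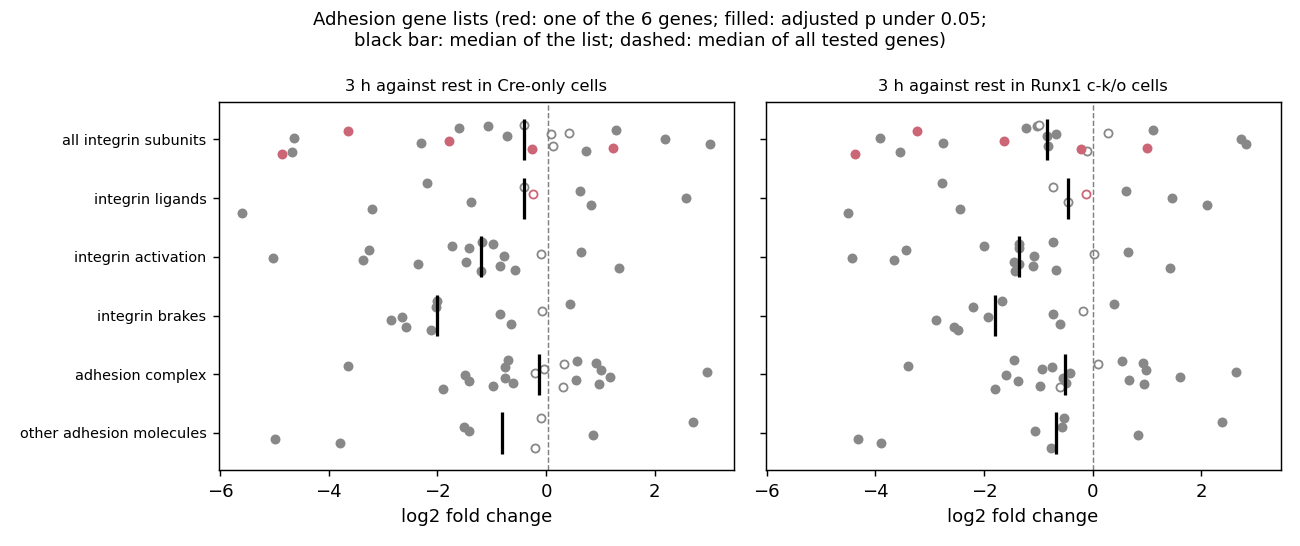
Log2 fold change at 3 h against rest of each tested gene in 6 adhesion lists, in Cre-only (left) and Runx1 c-k/o cells (right). Red points are among the 6 genes, filled points passed an adjusted p of 0.05, black bars are list medians and the dashed line is the median of all tested genes; the lists of integrin activation and of integrin brakes lie mostly to the left of it, with medians of -1.19 and -2.02 in Cre-only cells.

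Other adhesion molecules were called in 6 of 8 cases in Cre-only cells, 2 higher and 4 lower, which was the same share as the 75.0% of all genes. Cd44, the hyaluronan receptor, rose by 2.70 ± 0.18 on the log2 scale and the tetraspanin Cd9 by 0.86 ± 0.19 (0.77 and not called with 1 RUVs factor, edgeR adjusted p = 0.0961), while Pecam1, encoding CD31, fell by 4.99 ± 0.33. All 8 were called in Runx1 c-k/o cells, 2 higher and 6 lower, against 74.3% of all genes, 37.7% higher and 36.6% lower. At 3 h Cd47 and Cd81 were higher in Runx1 c-k/o cells, by 1.19 ± 0.09 and 0.74 ± 0.12 on the log2 scale (edgeR adjusted p = 2.60e-05 and 0.00653).

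Between genotypes few other listed genes were called. Skap1, an adaptor of integrin activation, was lower at rest, at 0.796 to 1.36 against 2.05 to 2.99 normalized CPM (log2 fold change -1.34 ± 0.25, edgeR adjusted p = 0.0188), and lost the call without resting Cre-only library 1 or 2 or resting Runx1 c-k/o library 1 or 3 (edgeR adjusted p from 0.0872 to 0.11). Rap1gap, which switches RAP1 off, was higher in Runx1 c-k/o cells at both times, at 14.2 to 26.4 against 7.76 to 10.6 normalized CPM at rest and 9.84 to 14.7 against 4.44 to 5.48 at 3 h. Its log2 fold changes were 1.13 ± 0.23 and 1.24 ± 0.24 (edgeR adjusted p = 0.0287 and 0.0164). The resting call was lost in 6 of the 12 fits that left out 1 library, with values from 0.85 to 1.26, the lowest without resting Runx1 c-k/o library 2 (edgeR adjusted p = 0.078). The other 5 left out resting Cre-only library 1, 2 or 3, 3-h Cre-only library 1 or resting Runx1 c-k/o library 3. The 3-h call was lost without 3-h Cre-only library 1 or 2 or 3-h Runx1 c-k/o library 2 (edgeR adjusted p = 0.0798, 0.0828 and 0.0589). Cyth1, encoding the LFA-1 regulator cytohesin-1, was lower at 3 h by 0.41 ± 0.10 on the log2 scale (edgeR adjusted p = 0.0457). The call was lost in 10 of the 12 fits that left out 1 library, all but those without 3-h Cre-only library 1 or resting Runx1 c-k/o library 2, with adjusted p from 0.0519 to 0.202 (edgeR). Other scalings, other filters, the replicate block and a fit of the 2 groups alone (edgeR adjusted p = 0.231) also lost it, so it was lost in 16 of 23 alternatives. No gene of the adhesion complex was called between genotypes at rest or at 3 h by edgeR, with 1 and 4 at an unadjusted p under 0.05 and 1 and 3 called by DESeq2.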

How the data were processed

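Each library held polyA-selected RNA of B cells, prepared with a strand-marking kit and sequenced as read pairs. Per the labels and methods, the authors aligned reads to mm9 with TopHat2 2.0.11 and Ensembl 66 genes, CASAVA 1.8.4 is named for the run, and featureCounts gave the deposited counts, whole reads per gene with no normalization. The strand setting, handling of multimapped reads and pooling of mice were not given in the sources used here.

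Gene names came from GENCODE vM1 (mm9), which named 37205 of 37991 identifiers; Cd99 and Ighd matched none. Counts were filtered (filterByExpr, minimum count 10), scaled by TMM and tested in edgeR 4.0.16 (R 4.3.3) with the quasi-likelihood test in 1 fit of all 12 samples, with Benjamini-Hochberg adjustment over 13538 genes and a threshold of 0.05. Normalized CPM is counts scaled to a common total of the TMM-adjusted library, so a change in RNA per cell is not seen. SE is the log2 fold change over the root of F. Ratios used normalized CPM per kilobase of merged exons and two-sided exact permutation tests (scipy 1.17.1). Intervals and the 3-count limit cover counting error or sample spread only. On simulated counts, edgeR recovered 68.0% of 2-fold and 96.8% of 4-fold changes in the resting genotype comparison, among 13034 genes.

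The 6 genes and all lists were chosen with earlier results of these data known. The genes named were the 6, every integrin subunit past the filter, per list and comparison up to 3 called genes in each direction by adjusted p, the 3 genes most like each of the 6, and Runx1. Alternatives were DESeq2 1.42.0, other scalings and filters, 1 factor of unwanted variation, replicate blocks, 2-group fits and leaving out libraries. Same-numbered Cre-only samples of both times deviated together (correlations 0.197 to 0.329), as did not all Runx1 c-k/o pairs (-0.369 to 0.378) or pairs across genotypes. A pairing was thus seen only between the Cre-only times. Runx1 c-k/o pairs of unlike number ran from -0.547 to 0.594, so the libraries standing apart could mask a pairing there. No libraries agreed within sampling noise. Some listed genes are not reported here by name.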

Additional observations from a re-analysis of the deposited data

Results flagged for a closer look

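The genotype difference of Cd47, a partner of β3 integrins, was not the same at both times by the test of that change (interaction 0.95 ± 0.12 on the log2 scale, edgeR adjusted p = 0.0116). Cd47 was at 181 to 194 normalized CPM in Cre-only and 219 to 225 in Runx1 c-k/o cells at rest, and at 63.0 to 70.3 and 135 to 162 at 3 h. The call was lost without resting Cre-only library 1 (0.94, edgeR adjusted p = 0.0601) or 2 (0.92, edgeR adjusted p = 0.0581) or 3-h Cre-only library 2 (0.91, edgeR adjusted p = 0.0653). It was also lost with a replicate block within each genotype (0.94, edgeR adjusted p = 0.26). The annotation places a pseudogene model inside the 3′ part of Cd47, so its counts are uncertain.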

How the results depend on the processing

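The 5 calls on activation in Cre-only cells and the direction of every one of the 6 genes on activation held under each alternative run. The 4 ratios were recomputed only leaving out 1 library, which cannot move a mean of 3 samples by more than their SD. Between genotypes at 3 h each of the 4 log2 ratio differences took both signs, that of Itga4 to its partners from -0.74 to 0.11. At rest that of Itgal to Itgb2 ran from -0.19 to 0.04, and the other ratios kept their sign. With a replicate block over the 4 groups 140 genes were called at rest, 275 at 3 h and 12 in the interaction, and no call of the 6 genes other than Icam2 moved; with a replicate block within each genotype, Itgb2 in Runx1 c-k/o cells lost its call (-0.21, adjusted p = 0.0733) and the interaction called 4 genes, Cd47 not among them (adjusted p = 0.26). For same-numbered Runx1 c-k/o samples and samples across genotypes no pairing was seen, and with Runx1 c-k/o libraries standing apart the correlations cannot exclude one.

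Between genotypes the count of genes called depended on the method. At rest it was 202, and it was 378 with DESeq2, 514 and 602 with 1 RUVs factor in edgeR and in DESeq2, 598 without resting Runx1 c-k/o library 2 and 3-h library 1, 864 without all 3 libraries that stand apart, and 81 to 386 leaving out 1 library. At 3 h it was 375, and 709, 1062, 1275, 914 and 656 in the same order, 158 in a fit of the 2 groups alone and 180 to 617 leaving out 1 library. The interaction called 11, and then 83, 134, 251, 187 and 173, and 4 to 31 leaving out 1 library. Of the 6 genes, 1 was called at rest with either RUVs fit or without the 3 libraries (Itga4, -0.30, -0.30 and -0.24), 1 at 3 h without the 3 libraries (Itgb7, -0.89), and 1 in the interaction in DESeq2 with 1 RUVs factor (Itga4, 0.38), without 2 libraries (Itga4, 0.52) or without 3 (Itgb7, -0.80). Leaving out 1 library, Itga4 ran from -0.66 to -0.26 at rest and from -0.44 to 0.27 at 3 h, and Itgb7 from -0.32 to 0.74 at 3 h and from -0.18 to 0.88 in the interaction. The RUVs factor takes up part of the activation difference (Itga4 -1.92 in place of -3.64 in Cre-only cells). The cause was not tested.

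Small differences turned sign without a call. Icam2 at rest was -0.0313 by library size alone, -0.0100 with 10 counts in every sample, -0.0357 and -0.0408 with RUVs, -0.0114 with 2 groups alone and -0.00152 without 2 libraries (-0.0498 to 0.0936 leaving out 1). Itgal at 3 h was 0.0231 with DESeq2's size factors, 0.00159 with no filter, 0.0209 with 10 counts in every sample, 0.0231 in DESeq2, 0.0669 and 0.10 with RUVs, 0.00448 with 2 groups alone, and 0.19 and 0.20 without 2 and 3 libraries (-0.14 to 0.19 leaving out 1). Itgb2 at 3 h was 0.0179 with DESeq2's size factors, 0.0118 with 10 counts in every sample, 0.0174 in DESeq2, 0.00512 with RUVs in DESeq2 and 0.0127 without 2 libraries (-0.0464 to 0.0133 leaving out 1), and its interaction ran from -0.00649 to 0.12. Itga4 at 3 h was 0.0419 and 0.0785 with RUVs and 0.27 and 0.0487 without 2 and 3 libraries. With RUVs, Dok1 on activation was -0.0264 and -0.14 in Cre-only cells, and in the other genotype -0.0928 and -0.16.

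The decrease of Icam2 in Cre-only cells passed the threshold at -0.33 (DESeq2's size factors), -0.37 (library size alone), -0.41 (10 counts in every sample), -0.33 (DESeq2), -0.55 and -0.66 (RUVs), -0.25 (replicate block), -0.32 (2 groups alone), -0.29 and -0.29 (without 2 and 3 libraries), and ran from -0.30 to -0.16 leaving out 1, called without resting Cre-only library 3, 3-h Cre-only library 1 or 3-h Runx1 c-k/o library 1. In Runx1 c-k/o cells it passed at -0.25 (library size alone), -0.45 and -0.51 (RUVs), and -0.26 and -0.27 (without 2 and 3 libraries), and ran from -0.26 to -0.0556 leaving out 1. Itgb2 in Runx1 c-k/o cells lost its call at -0.26 with RUVs in edgeR and at -0.23 with 2 groups alone, and ran from -0.26 to -0.14 leaving out 1. With the longest transcript as length, the rank of 4 genes moved in resting Cre-only cells and of 2 in each other group.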
